A study of Mus musculus with 34 samples.

Results

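The 6 genes followed here, of 1856 features measured in mouse liver, belong to the cell cycle, the damage response and cell signalling: Parp1, Ccng1, Cdkn1b, Tubb5, Gnaq and Ppp2ca. They are the rows of the array table whose gene symbol is 1 of these names, and each is read by 1 of the 1920 spots. They were chosen by earlier values of the same table, their differences between heat-stressed and thermoneutral mice, so those differences are given here as a description, with no test.

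The thermoneutral group (TN) had 7 mice on 20 arrays, kept under thermoneutral conditions on an endophyte-free fescue diet. The heat-stressed group (HS) had 6 mice on 14 arrays and was under chronic heat for 2 weeks. The labels of 8 HS arrays give 34 °C, and those of 5 arrays (mice F203, F241 and M256) give exposure at 27 to 40 days of age. The labels of 2 other HS arrays (mice F222 and M242) name ICR mice, female, with an age of 27 days. The sources used here do not give what the HS mice ate, the strain and age of the TN mice, or the hybridisation batches. Such differences between the groups cannot be told apart from heat. Identifiers beginning with F and M number 3 and 4 in TN and 3 and 3 in HS, and the letter is used only as a letter, since 1 label of M242 says female.

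On each array, liver RNA from a single mouse competed with universal mouse reference RNA of the opposite dye, and the liver RNA was in Cy5 on 21 arrays and in Cy3 on 13. A value below is the log2 ratio of liver over reference after each array was centred on its median, so it is relative to that gene in the reference and to the middle gene of the array. It gives no order of abundance among genes. A mouse's ratio combines its 1 to 4 technical arrays after removal of a dye term, and the mouse is the replicate. Per the series text the probes were designed on rat sequence. Close relatives, such as Gna11 for Gnaq, Ppp2cb for Ppp2ca or other beta tubulins for Tubb5, can share a probe's signal. The HS labels name liver, and those of TN do not. Of 37 measured genes for plasma proteins made by hepatocytes, 31 were higher than in the reference over all mice, and their mean ratio per mouse ran from 1.42 to 2.21 in TN and from 1.47 to 2.21 in HS.

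Parp1 encodes a poly(ADP-ribose) polymerase that senses broken DNA and recruits repair factors. Ccng1 encodes cyclin G1, a transcriptional target of p53 that binds regulatory subunits of protein phosphatase PP2A, and Cdkn1b encodes p27, an inhibitor of cyclin-dependent kinases that keeps quiescent cells out of the cycle. Tubb5 is a beta tubulin of microtubules, Gnaq the alpha subunit of Gq, which couples receptors for vasopressin, alpha-adrenergic agonists and other ligands to phospholipase C, and Ppp2ca a catalytic subunit of PP2A. Adult liver is mostly quiescent, and its hepatocytes use the phospholipase C route to raise calcium and mobilise glycogen. The only ages given here, for HS mice, are 27 days and 27 to 40 days, so adult quiescence may not hold for these mice.

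Parp1, Tubb5, Gnaq and Ppp2ca had a lower mean in HS, with no change of sign under any setting tried. The settings reuse the mice by which these genes were chosen, so a kept sign is no separate support. Ccng1 had a higher mean, and the sign of Cdkn1b hung on 1 mouse. All 6 HS mice lay below the TN mean for Gnaq, Ppp2ca and Tubb5, and the share of all features with this property was not counted. The mean differences were −0.84 for Gnaq, −0.83 for Parp1, −0.68 for Ppp2ca, −0.59 for Tubb5, −0.33 for Cdkn1b and 0.65 for Ccng1. Over all 1856 features the median difference was −0.01 with a median standard error of 0.31, and limma with Benjamini-Hochberg adjustment called 0 of them (0%), with 45 at an unadjusted p under 0.05. No feature had HS and TN mice without overlap (0%), the 6 genes included. In tissue RNA, fewer cells of a type and less RNA per cell cannot be told apart.

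**Figure D1:**
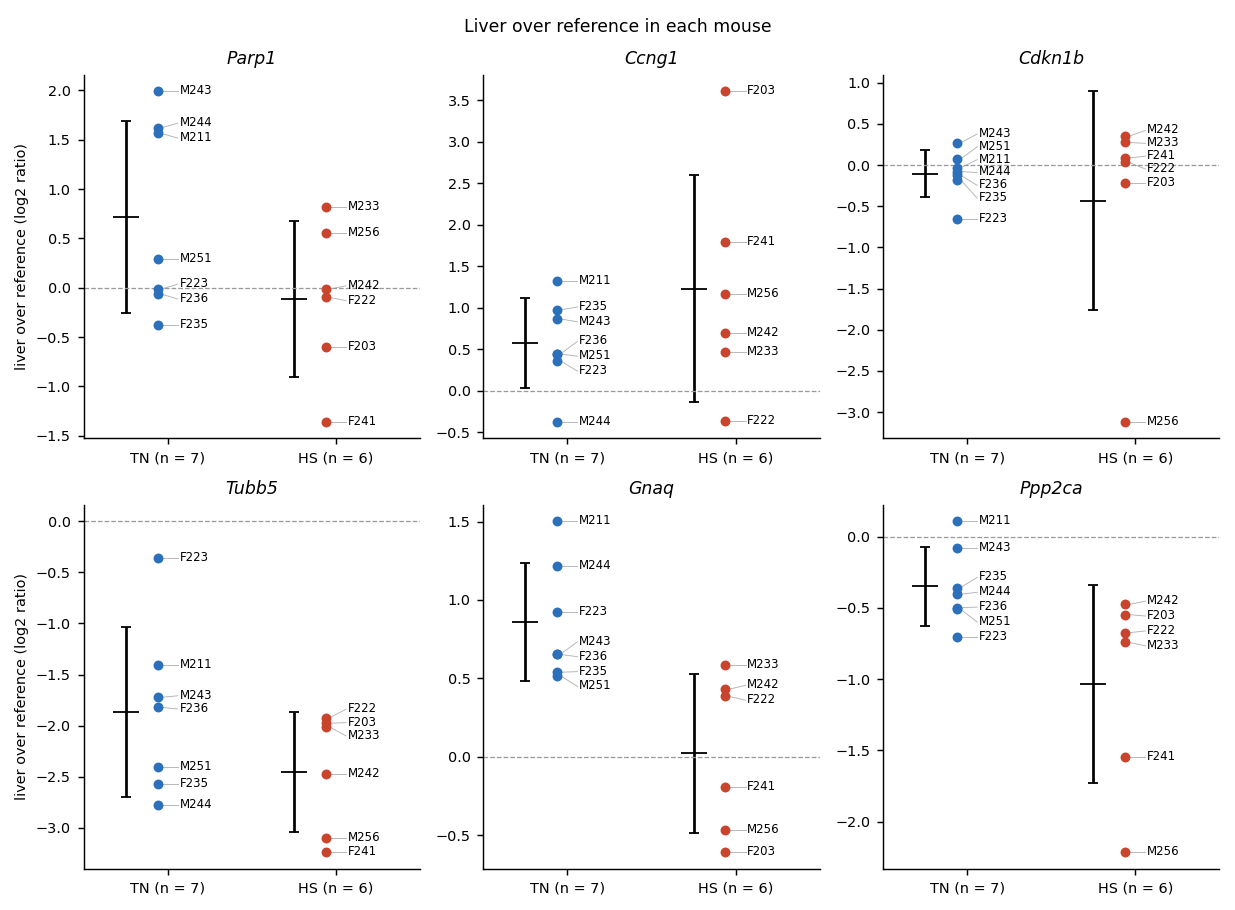
Log2 ratio of liver over reference (y axis) of each of the 7 TN mice (blue) and 6 HS mice (red) for the 6 genes, with the group mean and SD as a bar. The HS mice sit low for Gnaq, while F203 alone extends Ccng1 to 3.61 and M256 alone extends Cdkn1b to −3.12.

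Of the damage response genes, Parp1 had a lower and Ccng1 a higher mean in HS, the latter resting on F203. Parp1 ran from −0.38 in F235 over a median of 0.30 to 1.99 in M243 among the TN mice. Among the HS mice it ran from −1.36 in F241 over a median of −0.06 to 0.81 in M233. The groups overlapped, with 4 of 6 HS mice inside the TN range and F203 and F241 below it. The means were 0.72 ± 0.97 (SD, n = 7) and −0.12 ± 0.79 (SD, n = 6), a difference of −0.83 (standard error 0.41). Leaving out 1 mouse at a time gave differences from −1.02 without M233 to −0.60 without F241. The TN spread of Parp1 was wider than that of 97.9% of features, and its HS spread wider than that of 83.6%.

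In TN, 3 mice stood high for Parp1, M243 at 1.99, M244 at 1.62 and M211 at 1.57, against −0.38 to 0.30 in the other 4. The arrays of M211 agreed on this, at 1.19 to 1.87. Those of M243 read 3.7, 0.62 and 1.44, and those of M244 read 2.24 and 1.00. The HS mouse at the low end, F241, read −0.81 and −1.91. Arrays of one mouse lay on both sides of 0 in the TN mice F235 (−2.24 to 0.76), F223 (−1.37 to 1.34), F236 (−0.68 to 0.5) and M251 (−0.35 to 0.75) and in the HS mouse M242 (−0.58 to 0.62). The SD between arrays of a mouse was 0.92 for Parp1, above that of 86.5% of features, and the SD between mice within groups was 0.89. With limma's quality weights on the mice, which gave M244 the lowest weight, the difference of Parp1 was −0.38. It was −0.49 from the Cy5 arrays alone and −1.17 from the Cy3 arrays alone. It was −0.43 without F203 and the 2 arrays of widest spread, the Cy5 array of M244 and the Cy3 array of F241.

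Ccng1 ran from −0.38 in M244 over 0.45 to 1.32 in M211 in TN, and from −0.36 in F222 over 0.93 to 3.61 in F203 in HS. Only F203 and F241, at 3.61 and 1.79, lay above the TN range, and 4 of 6 HS mice lay within it. The means were 0.58 ± 0.54 (SD, n = 7) and 1.23 ± 1.37 (SD, n = 6), a difference of 0.65 (standard error 0.45). The HS spread was wider than that of 99.4% of features, while the TN spread stood at 48.7%. F203 has 1 array, which read 3.74 with the mouse RNA in Cy3, so that no second array of this mouse bears on the value. Without F203 the difference was 0.18, and without F222, the lowest HS mouse, it was 1.00. F241 read 1.22 and 2.36 and M256 read 1.82 and 0.51, so that all 5 arrays of F203, F241 and M256 lay above 0. F222 read −1.54, −0.50 and 0.83. The difference was 0.08 from the Cy5 arrays alone and 0.99 from the Cy3 arrays alone. F203 is not among the Cy5 arrays, so these 2 values differ in mice as well as in dye. The Ccng1 difference was 0.17 with quality weights, 0.33 with arrays scaled to one spread, 0.36 after quantile normalization and 0.31 from single arrays with the mouse as a random block. Without F203 and the 2 arrays of widest spread it was 0.10.

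The cell cycle inhibitor Cdkn1b lay between −0.66 and 0.35 in all mice but M256. In TN it ran from −0.66 in F223 over −0.08 to 0.27 in M243, a spread narrower than that of all but 5.77% of features. In HS the median was 0.06 and the highest mouse M242 at 0.35, and the next to lowest was F203 at −0.22. The lowest was M256 at −3.12. Of 6 HS mice, 4 thus lay above the TN mean, while the HS mean of −0.43 ± 1.33 (SD, n = 6) lay below that of TN, −0.11 ± 0.29 (SD, n = 7). The difference of −0.33 (standard error 0.42) became 0.25 without M256. The value of M256 came mostly from its Cy5 array at −5.19, whose deposited value is a ratio of about 0.024, while its Cy3 array read −1.05. The Cy3 reading was still the lowest of the Cy3 arrays for this gene. Without the Cy5 array of M256 alone, the difference was 0.06, and from the Cy5 arrays alone it was −0.82. Background intensities were not used here, so whether the spot was dim was not tested.

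**Figure D2:**
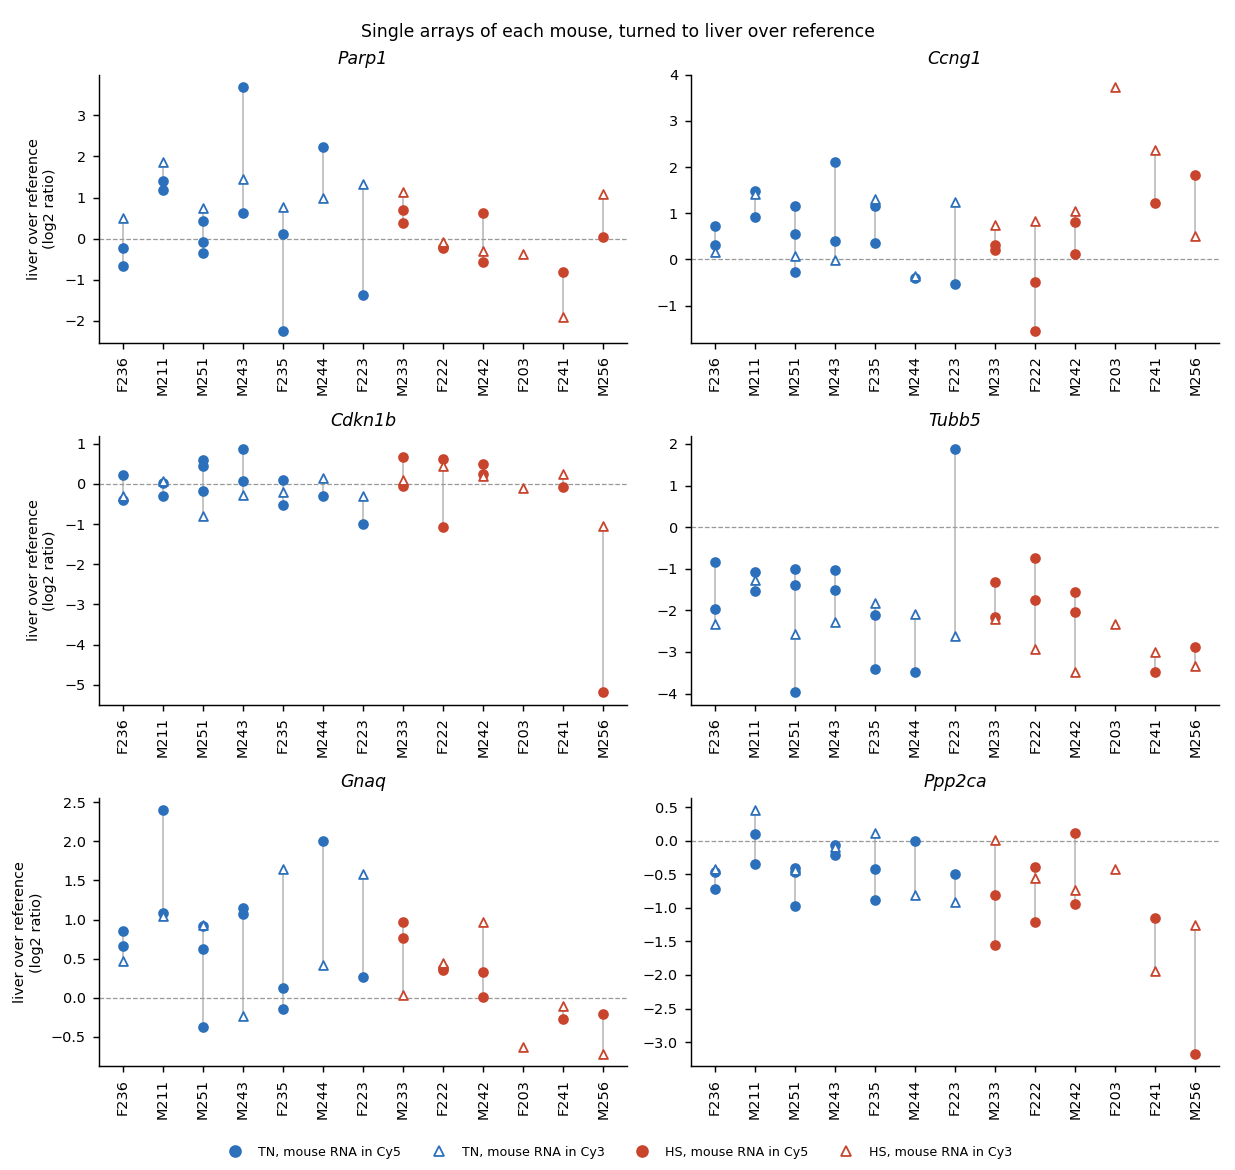
Log2 ratio of liver over reference (y axis) on each array of each mouse (x axis), centred and turned to liver over reference with no dye correction (filled circles, mouse RNA in Cy5, open triangles, Cy3, blue, TN, red, HS, lines join the arrays of a mouse). The Cy5 array of M256 for Cdkn1b (−5.19) and that of F223 for Tubb5 (1.89) stand far from the Cy3 array of the same mouse (−1.05 and −2.61).

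Tubb5, the beta tubulin, lay below the reference in 13 of 13 mice. It ran from −2.78 in M244 over −1.82 to −0.36 in F223 in TN, and from −3.24 in F241 over −2.24 to −1.92 in F222 in HS. Of 6 HS mice, 4 were inside the TN range, and M256 and F241 were below it. The means were −1.87 ± 0.83 (SD, n = 7) and −2.45 ± 0.59 (SD, n = 6), a difference of −0.59 (standard error 0.36). The highest TN mouse, F223, rested on a Cy5 array at 1.89 and a Cy3 array at −2.61. Its Cy5 array was the only array of 34 with Tubb5 above 0, and without F223 the difference was −0.38. M251 also had a wide range, from −3.97 to −1.01 over 4 arrays. The SD between arrays of a mouse was 1.04 for Tubb5, above that of 93.2% of features and above the 0.73 between mice within groups. The dye term of Tubb5 was 0.34. The difference was −0.23 with all arrays scaled to one spread, −0.30 after quantile normalization, −0.36 with quality weights and −0.33 without the Cy5 array of F223. It was −0.84 without the 2 arrays of widest spread and −0.98 without F203 as well.

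For both signalling genes, Gnaq and Ppp2ca, each HS mouse lay below the TN mean. Gnaq was above the reference in all 7 TN mice, from 0.52 in M251 over 0.66 to 1.5 in M211. In HS it ran from −0.61 in F203 over 0.10 to 0.58 in M233. Only M233 was inside the TN range, and the 5 other HS mice lay below every TN mouse. The means were 0.86 ± 0.38 (SD, n = 7) and 0.02 ± 0.51 (SD, n = 6), a difference of −0.84 (standard error 0.28). It ranged from −0.96 without M233 to −0.71 without F203, and it was −0.39 with quality weights. Arrays of a mouse varied about as in other features, with an SD of 0.66 against a median of 0.64 over all features. Of 34 arrays, those of F203 at −0.63, F241 at −0.27 and −0.11, and M256 at −0.21 and −0.72 were all below 0, in both dye orientations. The other 3 HS mice had no array below 0. Single arrays of M251 at −0.37, M243 at −0.23 and F235 at −0.14 lay below 0 in TN.

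Ppp2ca varied little among TN mice, with a spread narrower than that of all but 5.17% of features. It ran from −0.71 in F223 over −0.41 to 0.11 in M211 in TN, and from −2.22 in M256 over −0.71 to −0.48 in M242 in HS. Of 6 HS mice, 3 were within the TN range. The means were −0.35 ± 0.28 (SD, n = 7) and −1.03 ± 0.70 (SD, n = 6), a difference of −0.68 (standard error 0.30). M256 and F241 stood lowest, at −2.22 and −1.55, and without M256 the difference was −0.43. It was −0.44 with quality weights. Both arrays of M256 (−3.18 and −1.25) and of F241 (−1.15 and −1.94) were low. M233 had arrays from −1.55 to 0.01 and so spanned both groups. The SD between arrays of a mouse was 0.52, at the level of the 0.51 between mice within groups.

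The HS mice fell into those with 3 arrays each (M233, F222 and M242) and those with 1 or 2 (F203, F241 and M256), and for each of the 6 genes the mean of the latter lay farther from the TN mean. The genes were chosen by a difference that includes these mice, and the share of all features with this order was not counted. The mean of Gnaq was 0.47 in the first 3 and −0.42 in the other 3, against 0.86 in TN. Ccng1 was 0.27 and 2.19, against 0.58 in TN. Ppp2ca was −0.63 and −1.44, Tubb5 −2.13 and −2.77, and Parp1 0.23 and −0.47, with both means of each gene below its TN mean of −0.35, −1.87 and 0.72. Cdkn1b was 0.22 and −1.09, against −0.11. Number of arrays was not the only way in which these mice stood apart. The labels that give exposure at 27 to 40 days are those of the same 3 mice. Their ratios over all features had median absolute deviations of 1.03 to 1.07, against 0.65 to 0.81 in the other HS mice and 0.54 to 0.86 in TN without M244, which stood at 1.75. Their ratios correlated at 0.84 with the mean of the other mice, against 0.88 to 0.92 in the HS mice with 3 arrays and 0.67 to 0.95 in TN.

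With only the 3 HS mice of 3 arrays, a choice made after the data had been seen, the differences from TN were −0.48 for Parp1, −0.39 for Gnaq, −0.28 for Ppp2ca, −0.27 for Tubb5, −0.30 for Ccng1 and 0.31 for Cdkn1b. The sign of Ccng1 and of Cdkn1b was then turned, and the other 4 kept theirs at a smaller size. Whether number of arrays, their spread or a condition of these mice moves the values was not tested. Limma called 0 of all features in that subset.

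**Figure D3:**
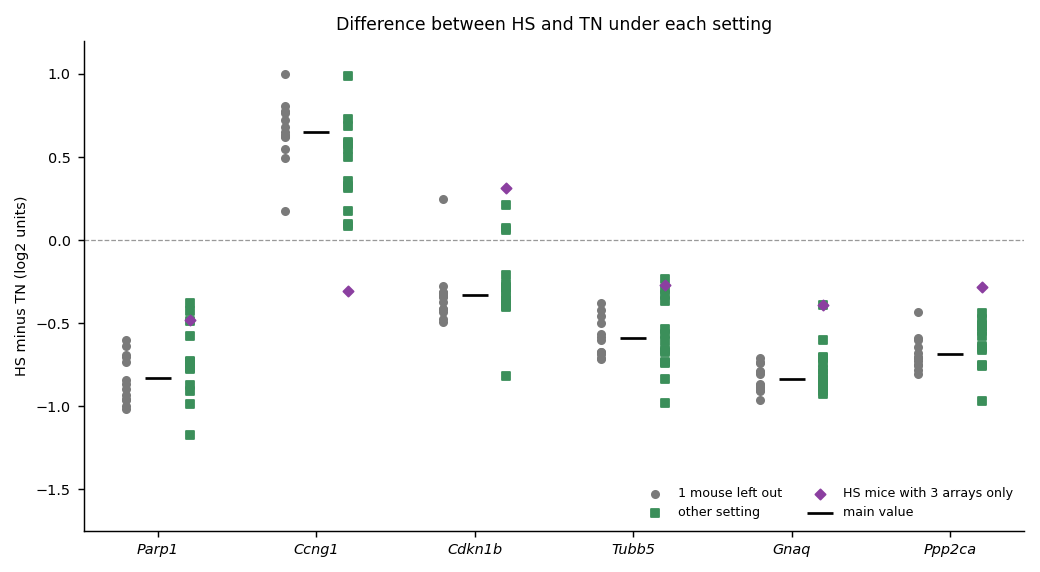
Difference between HS and TN means in log2 units (y axis) for each gene: the reported value (black line), the values with 1 mouse left out (grey circles), those under other settings (green squares) and that with only the HS mice of 3 arrays (purple diamonds). Parp1, Tubb5, Gnaq and Ppp2ca stay below 0 throughout, while Ccng1 reaches −0.30 and Cdkn1b lies on both sides of 0.

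The level of each gene in liver against the reference is the mean of the TN and HS means at equal weight. This level was not used to choose the genes and was tested with limma over all features. Tubb5 was lower in liver, at −2.16 (standard error 0.18, 95% interval −2.53 to −1.79, limma adjusted p = 3.33e-10), or 4.47-fold, and lay below 0 in 13 of 13 mice. Ppp2ca was lower at −0.69 (0.15, −0.998 to −0.385, limma adjusted p = 0.000349), or 1.61-fold, in 12 of 13 mice. Ccng1 was higher at 0.90 (0.22, 0.44 to 1.37, limma adjusted p = 0.0015), or 1.87-fold, in 11 of 13. Gnaq was higher at 0.44 (0.14, 0.15 to 0.73, limma adjusted p = 0.0106), or 1.36-fold, in 10 of 13, all but the HS mice F203, F241 and M256. Parp1 at 0.30 (−0.13 to 0.73, limma adjusted p = 0.268) and Cdkn1b at −0.27 (−0.70 to 0.17, limma adjusted p = 0.343) did not pass. Of the 6 genes, 2 were thus called higher and 2 lower, where 24.1% of all features were higher and 24.4% lower.

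The level calls of Ccng1 and Gnaq depended on the arrays used. Ccng1 missed the threshold on Cy5 arrays alone (0.51, limma adjusted p = 0.0896) and with only the HS mice of 3 arrays (0.43, limma adjusted p = 0.0643). Gnaq missed it on Cy3 arrays alone (0.42, limma adjusted p = 0.0703). Tubb5 and Ppp2ca were called in each of 27 settings. The composition of the reference is not given in the sources used here, so a ratio below 0 can come from a low level in liver or a high level in the reference.

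Other genes of the same processes came from 6 lists of textbook pathway members and were named by their level, not by heat. Over these lists 53 other genes were measured. Between HS and TN, limma called 0 of the 53, with 0 at an unadjusted p under 0.05. Their median difference was 0.02, and 27 of 53 were positive, against 48.3% of all features. In level, 11 of 53 were higher in liver (20.8%) and 25 lower (47.2%), beside 24.1% and 24.4% of all features.

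In the damage and repair list, 6 other genes were measured, of which 0 were higher and 2 lower than the reference. Btg1, an antiproliferative gene, was at −0.59, and Nbn, of the complex that binds DNA breaks, at −0.60. The stress genes Ddit3 at 0.03 and Gadd45g at 0.01 did not pass. Of these 6, 1 was more positive in HS than in TN, and the median difference was −0.07. Of 7 apoptosis genes, 2 were higher (the caspase Casp6 at 1.10 and the mitochondrial flavoprotein Aifm1 at 0.53) and 2 lower (cytochrome c, Cycs, at −0.48 and Bnip3 at −0.93). Of these 7, 3 were more positive in HS, with a median difference of −0.03.

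Of 5 other cell cycle genes, 1 was higher and 3 lower. The kinase gene Plk2 was at 0.69, the growth regulator Myc at −1.19 and the G1 kinase Cdk4 at −1.86, while Rbl2, a relative of the retinoblastoma gene, was at 0.09 and did not pass. Their median difference between HS and TN was 0.09, with 3 of 5 positive. Of 9 other cytoskeleton genes, 0 were higher and 6 lower, among them the actin-binding thymosin Tmsb4x at −3.31 and the intermediate filament gene Vim at −4.03. The keratin Krt8 at 0.10 and the beta tubulin Tubb2b at −0.02 did not pass. For heat, 3 of the 9 were positive and the median was −0.14.

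Of 11 other genes of G proteins and second messengers, 3 were higher and 5 lower. The glucagon receptor Gcgr was at 1.80 and the calmodulin kinase Camk2g at 0.68, while Rab2a, a small GTPase, was at −0.89 and Gnb2, a G protein beta subunit, at −1.13. Their median difference between HS and TN was 0.03, with 6 of 11 positive. Of 15 other phosphatases and kinases, 5 were higher and 7 lower. The receptor Egfr was at 0.96 and the insulin receptor phosphatase Ptpn1 at 0.75, while the MAP kinase kinase Map2k1 was at −1.12 and the phosphatase Ptp4a2 at −1.14. Their median difference was 0.06, with 11 of 15 positive.

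**Figure D4:**
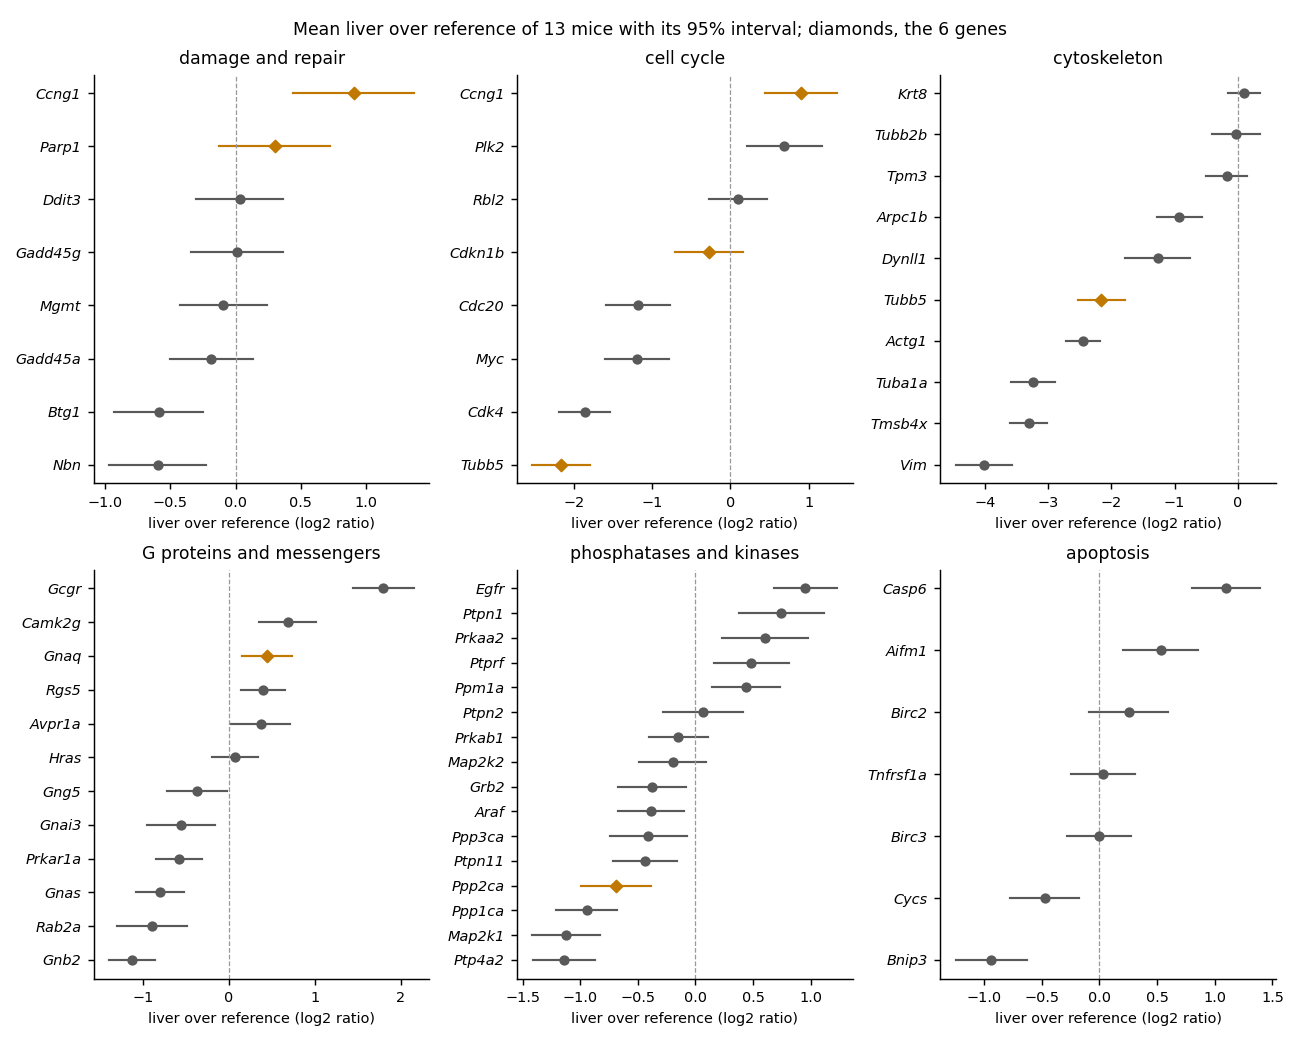
Log2 ratio of liver over reference (x axis) with its 95% interval for each measured gene of the 6 lists. Each point is the mean of the TN and HS means at equal weight, from 13 mice, with the followed genes as orange diamonds. Each ratio is against the same gene in the reference, and cytoskeleton genes reach from 0.10 (Krt8) down to −4.03 (Vim), with Tubb5 at −2.16.

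Markers of other cells in liver were few on these arrays. The 4 measured macrophage markers (Clec4f, Slc11a1, Lyz2 and C1qb) had mean ratios per mouse from −1.15 to −0.00 in TN and from −0.56 to −0.09 in HS. The 3 stellate cell and matrix markers (Timp1, Sparc and Vim) ran from −2.69 to −1.25 and from −3.21 to −1.51, the lymphocyte marker Nkg7 from 0.43 to 2.16 and from 0.64 to 1.68, and the haemoglobin gene Hba-a1 from 0.15 to 1.79 and from 0.47 to 2.67. The ranges overlapped for each list. No endothelial or bile duct marker was measured, and the part of these cells in the values of the 6 genes was not tested.

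Parp1 was the one gene of the 6 whose mice divided by the letter of the identifier. The 6 F mice ran from −1.36 in F241 over −0.24 to −0.02 in F223. The 7 M mice ran from −0.01 in M242 over 0.81 to 1.99 in M243. The letters did not overlap, but F223 at −0.015 and M242 at −0.0145 were nearly equal. The dye term of Parp1, −0.22, was far wider than that distance, so the order of these 2 mice rests on the dye correction. Their single arrays ran from −1.37 to 1.34 and from −0.58 to 0.62. Of 1856 features, 2 (0.108%), Gstp1 and Parp1, were without overlap. The F minus M difference of −1.34 (standard error 0.31, 95% interval −1.98 to −0.70) had the second smallest p of all features and did not pass, with a limma adjusted p of 0.231. The 1 feature called (0.0539% of features, with 70 at an unadjusted p under 0.05) was Gstp1, a glutathione S-transferase, at −1.98 and a limma adjusted p of 0.00316. That call was lost on Cy5 arrays alone and with M242 counted with F, each of which left 0 features called.

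**Figure D5:**
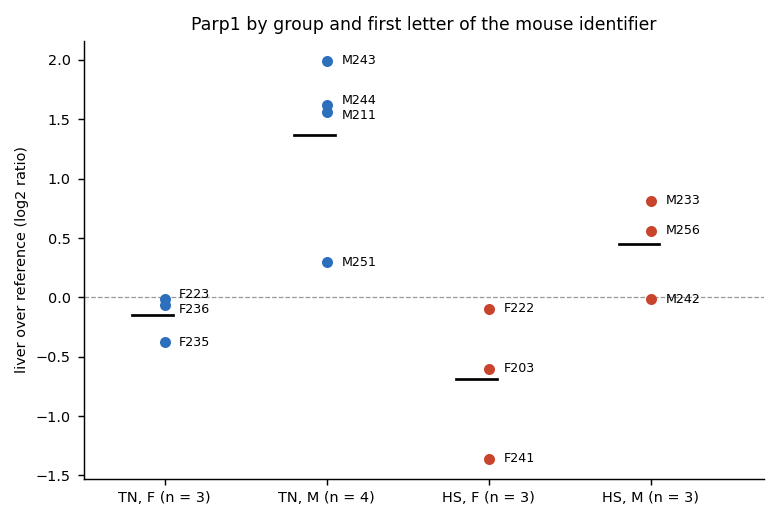
Log2 ratio of Parp1 in liver over reference (y axis) for each mouse by group and identifier letter, with the mean as a line. The F means are −0.15 in TN and −0.69 in HS, and the M means 1.37 and 0.45.

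The difference of Parp1 had the same sign in both groups. In TN the F and M means were −0.15 and 1.37, and in HS −0.69 and 0.45, which gave −1.52 and −1.14. Over 28 settings it ran from −1.70 to −0.88 with limma adjusted p values from 0.0553 to 1.00, none past the threshold. M242, the lowest M mouse for Parp1, is the one called female in 1 label, and counting it with F gave −1.38 (limma adjusted p = 0.128). By identifier, TN holds 4 M mice of 7 and HS 3 of 6, and the HS share is smaller with M242 counted as F. What part the letter has in the difference of Parp1 between HS and TN was not tested. For the other 5 genes the limma adjusted p of the letter was 0.995 to 0.997. The interaction of heat and letter was called in 0 of 1856 features by limma (0%), with 22 at an unadjusted p under 0.05, and its adjusted p was 0.998 for each of the 6 genes.

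Across the 13 mice, which share the reference RNA, some of the 6 genes varied together. Gnaq and Ppp2ca correlated at r = 0.69 (Spearman 0.60), at 0.48 after the group means were removed and at 0.59 without M256. Parp1 and Gnaq correlated at 0.61 (Spearman 0.63), and at 0.47 after the group means were removed. Ccng1 and Gnaq correlated at −0.61 (Spearman −0.42), and at −0.57 after that removal. F203, with 1 array, was both the highest mouse for Ccng1 (3.61) and the lowest for Gnaq (−0.61). The correlation of this pair without F203 was not computed, so how far it rests on that mouse is not known. The values with the group means kept also hold the group differences by which the genes were chosen. The 0.74 between Cdkn1b and Ppp2ca came from M256, since it was 0.04 without that mouse. These are descriptions over mice that also share centring and array spread.

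Gnaq and Ppp2ca were both low in the HS mice F241 and M256, but so was Tubb5 (−3.24 and −3.10). F203, the lowest mouse for Gnaq at −0.61, was within the TN range for Ppp2ca at −0.55. For the 2 signalling genes the stretch before each start site is shown as background, with no link to these values tested. RefSeq gives it for GRCm38.p6 as chr19:16132434-16132683 for Gnaq and chr11:52098574-52098823 for Ppp2ca, both on the plus strand. Capitals mark GGGCGG, the core of the GC box, or its reverse complement.
Gnaq: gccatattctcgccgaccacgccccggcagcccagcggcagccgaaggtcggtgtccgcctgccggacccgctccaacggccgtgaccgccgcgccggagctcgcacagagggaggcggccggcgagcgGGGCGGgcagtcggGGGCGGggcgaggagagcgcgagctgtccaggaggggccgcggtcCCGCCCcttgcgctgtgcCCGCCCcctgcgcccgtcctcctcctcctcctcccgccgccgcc
Ppp2ca: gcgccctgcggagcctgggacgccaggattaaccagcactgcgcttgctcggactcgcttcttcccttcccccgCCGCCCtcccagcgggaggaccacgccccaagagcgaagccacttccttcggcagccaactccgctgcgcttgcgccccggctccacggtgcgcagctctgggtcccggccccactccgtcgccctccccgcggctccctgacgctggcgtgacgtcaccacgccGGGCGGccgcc
The Gnaq window is 79.2% G and C and holds GGGCGG 4 times over both strands, and the Ppp2ca window is 73.6% G and C and holds it 2 times. Among all 32851 promoter windows of 250 bases, 32.74% hold this motif on either strand. CCAAT, found in 33.85% of windows, and TATAAA, found in 12.37%, are in neither, which says only that these letters are not in these windows. None of the motifs overlap each other here, and a match is no evidence of a factor at the site.

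The features with 1 gene symbol most like each gene over the 13 mice were named by Pearson's r. For Parp1 they were Robo2 (0.78), Hsd11b1 (0.75) and Ftl1 (0.71), and Robo2 was also first for Gnaq (0.81), before Rpl28 (0.76) and Rps2 (0.73). For Ppp2ca they were Rpl19 (0.85), Rpl14 (0.85) and Rab1a (0.84), which stayed at 0.72, 0.76 and 0.71 without M256. For Tubb5 they were Ncl (0.84), Odc1 (0.83) and Plod1 (0.81). For Ccng1 they were Gphn (0.90), Cyp2c11 (0.90) and Myo9a (0.90), with 0.83, 0.76 and 0.74 without F203. For Cdkn1b they were Ybx3 (0.87), Gadd45a (0.81) and P4hb (0.81), and these were 0.37, 0.46 and −0.32 without M256.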

How the data were processed

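Liver RNA of 13 mice was hybridised on 34 two-colour arrays against a common reference. The values deposited by the authors are log2 ratios, 1 per spot and array. How the authors corrected background, normalized and filtered spots is not given in the sources used here. The base was read from the values: all 382 below −4.5 fall on log2 of a ratio rounded to 3 decimals. The ratios run Cy5 over Cy3, unturned: of 37 plasma protein genes, 26 to 35 lay above the array median with the mouse RNA in Cy5 and 2 to 8 in Cy3. Deposited column medians ran from −0.88 to 1.17, and 11 values were missing.

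Of 1920 spots, 1083 had 1 gene symbol in the platform annotation, 7 several, and 830 were not listed. Spots of 1 gene were averaged, giving 1856 features. All 6 followed symbols are also mouse symbols. Each array was centred on its median. Per feature, a least-squares fit with 13 signed mouse terms and 1 dye term gave 1 ratio per mouse. The mouse ratios went into limma 3.58.1 (lmFit, then eBayes; two-sided) in R 4.3.3. P-values were adjusted over all features by Benjamini-Hochberg, and an adjusted p under 0.05 was called. The code of the fit was run on simulated data whose arrays all had the same spread, narrower than the spread between arrays here. That run bears on the code and not on the precision of these data. P-values rest on the spread of the mouse ratios within groups, which eBayes moderates over all features. That spread also holds the spread between the arrays of a mouse. In the main fit each mouse counts equally, whatever its number of arrays. No intensities were used, so signal over background is unknown, and the number of arrays and mice limits the precision.

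The 6 genes and the lists were chosen with earlier results of these data known. Named list genes are the 2 highest and the 2 lowest of each list in liver over reference. The alternatives changed centring, scaling, dye handling, weights, the arrays or the mice used.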

Additional observations from a re-analysis of the deposited data

Results flagged for a closer look

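The ratio of Cdkn1b in the HS mouse M256, −3.12, stood far from the other 5 HS mice. Its gap to the nearest of them was 0.836 of the whole range of the group, above Dixon's 95% critical value for 6 samples. Of 12 groups checked (6 genes in TN and in HS), 1 passed this limit. Chance passes it in about 1 in 20 groups of genes not picked for their values. The 6 genes were chosen by these values, so that rate does not apply and the gap is a description. The 2 arrays of M256 read −5.19 in Cy5 and −1.05 in Cy3.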

How the results depend on the processing

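Under the alternatives, 785 recomputed values were marked as the same, 9 as moved and 3 as having lost their call. A tested value was the same if it kept its side of the threshold. A difference was the same if it moved by less than the spread between mice, so large shifts can be among the 785. For Ccng1 the difference went from 0.65 to −0.30 with only the HS mice of 3 arrays. Features lower than the reference went from 452 to 336 without centring and were also marked the same. The 9 are the Gnaq differences and the counts of called features given below. No called value changed sign. The difference between HS and TN of Gnaq was −0.39 with array quality weights and −0.39 with only the HS mice of 3 arrays. Its level was 0.42 on Cy3 arrays alone (limma adjusted p = 0.0703). The level of Ccng1 was 0.51 on Cy5 arrays alone (limma adjusted p = 0.0896) and 0.43 with only the HS mice of 3 arrays (0.0643). Features called for the letter numbered 0 on Cy5 arrays alone and 0 with M242 counted with F, and 1 to 2 with 1 mouse left out (2 without F222). Features called for the interaction numbered 1 with arrays scaled to one spread, 1 with array quality weights, and 0 to 1 with 1 mouse left out (1 without M244 and 1 without F222). The cause of these changes was not tested. The sign of Cdkn1b between HS and TN turned to 0.21 on Cy3 arrays alone and to 0.07 with quality weights, beside the values given above. Without centring, the median difference of all features was −0.09 for heat and −0.12 for the letter. Leaving out F203 together with the 2 arrays of widest spread, using only the HS mice of 3 arrays, moving M242 and dropping single Cy5 arrays were chosen after the data had been seen. Testing each spot of a gene alone was not run, since each of the 6 genes has 1 spot.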
